A study of Mus musculus with 60 samples.

Results

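The genes described here are 8 genes of the YAP transcription programme: Ccn1 (formerly Cyr61), Ccn2 (formerly Ctgf), Ankrd1, Axl and Amotl2 as transcriptional targets, and Yap1, Lats2 and Tead1 as parts of the Hippo pathway that controls it. They were taken by gene symbol from the platform annotation. All 8 were found, on 10 of the 21997 probes of the array, with a pair of probes each for Lats2 and Tead1. The list was chosen by gene function with 1 measured result of these data in view, the log2 difference of Ankrd1 between genotypes in untreated cells, which is therefore given as a description with no test. Other comparisons of Ankrd1 that use the same untreated replicates are treated in the same way and are left out of all counts of calls.

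YAP and its relative TAZ are transcriptional coactivators that have no DNA-binding domain of their own and reach their target genes through TEAD factors. The Hippo kinases, ending in LATS1 and LATS2, phosphorylate YAP and keep it in the cytoplasm, and the pathway limits liver size. Cell spreading, actin tension and growth factor signals shift this balance, which makes target genes such as Ccn2, Ccn1 and Ankrd1 widely used reporters of it. Met is the receptor tyrosine kinase for hepatocyte growth factor (HGF), a mitogen and motility factor of hepatocytes.

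The study measured messenger RNA in cultured primary mouse hepatocytes of 2 genotypes on 60 two-colour arrays. The control group, here WT, was a Cre control of strain C57BL; the labels of 6 of its 30 arrays add that the mice were transgenic and heterozygous for Cre. The knock-out group, here KO, came from Alb-Cre +/-; Met Fl/Fl mice on a mixed 129SV/C57BL6 background, in which the albumin promoter drives the deletion in hepatocytes, so that genotype and strain background cannot be told apart. Both groups carry Cre as labelled, and were adult males of 9 to 10 weeks. Cells were plated with serum, moved to serum-free medium after 4 h and given recombinant HGF the next day for 0.5, 2, 12 or 24 h, or left untreated (0 h), which makes 10 groups with 3 replicates each, from cultures of individual mice. The labels give the HGF dose as 50 ng/ml in one field and 50 nM in another. No group was left untreated for 12 or 24 h, so time in culture and HGF cannot be told apart in any comparison with 0 h.

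Each replicate was hybridised on 2 arrays with the dyes exchanged, against a pool of RNA from WT hepatocytes. The values are log2 ratios of sample to this pool, with 17356 to 21511 probes measured per array. A ratio of 0 means the level of the pool, and the ratios carry no absolute level, so that 1 gene cannot be set against another and the absence of a gene cannot be read from them. The direction of the ratios is not stated in the sources used here. Sample over reference is the likely reading, because the labels put the reference in channel 1 and the sample in channel 2 on every array. In 23 of 30 replicates the 2 orientations were negatively correlated over all probes (r from -0.677 to 0.186). Of the pairs of arrays with the sample in the same dye, 19 had r under -0.3, and all 19 included the Cy5 array of untreated WT replicate 3. The direction of that array is not settled, and the larger differences from untreated WT cells are also given with its sign turned. The only Met probe ranged from -0.55 to 0.57 in 13 WT replicates and from -0.05 to 0.44 in 14 KO replicates. Whether this probe lies in the deleted part of the gene is not known, so it does not check the genotype labels.

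Array numbers fell into 4 separate ranges, here sets A to D, with 4, 7, 27 and 22 arrays. The 0.5 h samples were all in set D and the 12 h samples all in set C. Set C also held replicates 1 and 2 at 0 h and 24 h in both genotypes, except that WT replicate 2 at 24 h had 1 array in set C and 1 in set B, and replicate 3 at 24 h was in set B in both. At 0 h, replicate 3 was in set A for KO and in set B for WT. Leaving out sets A and B, with WT replicate 2 at 24 h kept by its Cy5 array, gives values within set C for 12 h against 0 h, and nearly so for 24 h. All 0.5 h samples, all WT samples at 2 h and KO replicates 1 and 2 at 2 h lay in set D, which held no untreated sample. In WT a comparison of 0.5 h or 2 h with 0 h, and in KO one of 0.5 h with 0 h, therefore cannot be told apart from a difference between sets.

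Of the 10 probes, 6 had values in at least 2 of 3 replicates of every group and were tested, 1 each for Ccn2, Ccn1, Ankrd1, Amotl2, Lats2 and Tead1. The rest, those of Axl and Yap1 and the second probes of Lats2 and Tead1, are described without a test. Tests were limma's moderated tests across all 14580 probes that passed this filter, with Benjamini-Hochberg adjustment over all of them; a probe was called at an adjusted p under 0.05. Differences are log2 differences ± SE, and group levels are mean log2 ratios ± SD. Whether the replicates of 2 groups overlap is stated as a description, and the share of all probes without overlap was not counted. Shares of probes called refer to the tests only.

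TEAD factors bind the letters CATTCC, and the 250 bases before the transcription start were searched for them on both strands in the RefSeq promoter table, build GRCm38.p6. The table matched 6 of the 8 genes, with 7 entries; Ccn2 and Tead1 had none. The motif was found in Ccn1, Ankrd1, Amotl2, Axl and Yap1 and in neither entry of Lats2, against 12.6% of 32851 promoter windows of the same length. The promoters of 3 tested target genes are shown because they place the motif in the genes whose levels follow. They lie at chr3:145649986-145650235 on the minus strand for Ccn1, at chr19:36119845-36120094 on the minus strand for Ankrd1 and at chr9:102717554-102717803 on the plus strand for Amotl2. All are written 5′ to 3′ on the gene's strand, with CATTCC or its reverse complement GGAATG in capitals.
Ccn1: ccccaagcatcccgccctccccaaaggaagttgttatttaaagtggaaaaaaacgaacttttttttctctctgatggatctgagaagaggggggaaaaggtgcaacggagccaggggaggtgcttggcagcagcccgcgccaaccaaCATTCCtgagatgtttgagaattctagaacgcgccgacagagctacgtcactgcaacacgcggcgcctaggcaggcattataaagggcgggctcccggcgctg
Ankrd1: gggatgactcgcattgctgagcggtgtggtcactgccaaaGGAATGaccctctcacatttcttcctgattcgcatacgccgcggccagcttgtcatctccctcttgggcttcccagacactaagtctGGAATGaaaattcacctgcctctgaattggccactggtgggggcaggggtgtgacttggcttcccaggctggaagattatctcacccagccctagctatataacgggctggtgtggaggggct
Amotl2: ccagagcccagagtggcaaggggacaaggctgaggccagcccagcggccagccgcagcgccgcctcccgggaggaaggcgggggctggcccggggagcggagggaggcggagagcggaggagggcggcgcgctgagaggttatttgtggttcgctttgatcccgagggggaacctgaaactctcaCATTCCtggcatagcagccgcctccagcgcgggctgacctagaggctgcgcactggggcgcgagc
The match began 103 bases before the start in Ccn1 and 65 bases before it in Amotl2, and Ankrd1 held 2 matches, at 210 and 123 bases. Axl had 1 match at 233 bases and Yap1 had 1 at 141 bases. The AP-1 motif TGANTCA, present in 6.75% of all windows, and the SRF-binding CArG box, present in 1.47%, were found in none of the 7 entries. A match is a stretch of letters and no measurement of binding.

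Ccn2, a secreted matricellular protein that promotes fibrosis and cell adhesion, rose late in HGF-treated WT hepatocytes and had the largest log2 difference of any tested member in any comparison made here. In untreated WT cells its log2 ratios were 1.09, 0.31 and -0.32 in replicates 1 to 3. They were 0.61, 1.26 and 0.80 at 0.5 h and 0.61, 1.07 and 0.63 at 2 h. At 12 h they were 2.90, 3.09 and 3.14, and at 24 h 3.30, 2.89 and 1.59. All 6 late replicates lay above all 9 earlier ones, and the lowest of the 6 was replicate 3 at 24 h.

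In KO hepatocytes no late rise of Ccn2 was called. Untreated KO replicates had Ccn2 log2 ratios of 1.5, 0.92 and 0.95. The values at 0.5 h, 2.17, 1.88 and 2.42, were the highest 3 of the 0.5 h to 2 h samples of both genotypes, and those at 2 h were 0.04, -0.00 and 1.24. At 12 h replicates 1 and 3 had 0.92 and 1.75, and at 24 h the values were 2.08, 2.05 and 0.25. Replicate 2 at 12 h had a value on its Cy5 array only, 2.156, against 1.503, 0.926 and 0.745 on the untreated KO Cy5 arrays. The averaged 12 h and 24 h KO values overlapped those of untreated KO cells, although 2 of the 3 replicates at 24 h lay above every untreated one.

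**Figure D1:**
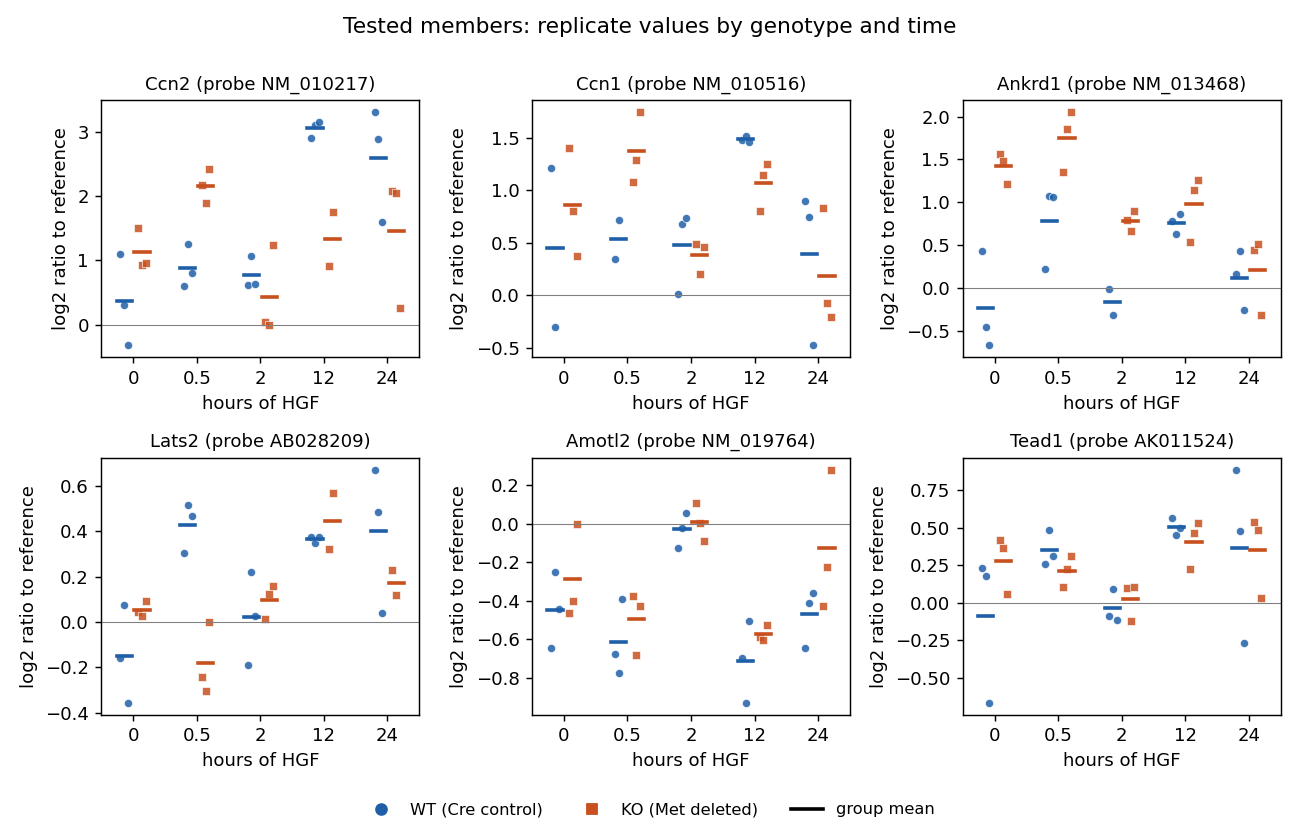
Log2 ratio to the pooled WT reference (vertical axis, scale differs between panels) at each HGF time (horizontal axis, hours) for the 6 tested probes. Each point is 1 replicate (2 arrays averaged), circles are WT and squares KO, and bars are group means: Ccn2 in WT stands at 3.05 at 12 h against 1.33 in KO, and Ankrd1 in untreated cells at -0.23 in WT against 1.42 in KO.

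Against untreated WT cells, Ccn2 rose by 2.69 ± 0.45 at 12 h, a 6.44-fold change (limma adjusted p = 0.00111, n = 3 and 3), and by 2.23 ± 0.45 at 24 h, 4.71-fold (adjusted p = 0.00209). At 0.5 h (0.53 ± 0.45, adjusted p = 0.601) and 2 h (0.41 ± 0.45, adjusted p = 0.796) it was not called. Of all probes, 5.81% were called at 12 h and 8.72% at 24 h, and of the 5 members tested against untreated cells 2 were called at each time, Ccn2 and Lats2, both higher. Without array sets A and B, which leaves out replicate 3 at 0 h and 24 h, the differences were 2.35 at 12 h and 2.40 at 24 h, and with the doubtful WT array turned they were 2.47 and 2.01, called in each case. The 24 h call was lost when only the groups compared entered the fit (adjusted p = 0.0968).

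In KO cells none of the 4 differences from untreated cells was called for Ccn2: 1.03 ± 0.45 at 0.5 h (adjusted p = 1.0), -0.70 ± 0.45 at 2 h (0.893), 0.21 ± 0.50 at 12 h (0.998) and 0.34 ± 0.45 at 24 h (0.829). At 0.5 h all 3 HGF replicates lay above the 3 untreated ones, and how many probes lacked overlap was not counted. In this comparison limma called 0.00686% of probes. The 95% interval of the 12 h difference ran from -0.83 to 1.24 and that of the 24 h difference from -0.59 to 1.26. Without array sets A and B the 24 h difference was 0.86 (adjusted p = 0.0845). At 2 h, 12 h and 24 h limma called 0.0343%, 0.13% and 3.48% of probes in KO. Of the 5 members tested against untreated KO cells limma called 0 at any time, with 2 of 20 pairs of member and time at an unadjusted p under 0.05. Such a p was found for 4.43%, 5.92%, 8.37% and 15.8% of all probes at 0.5, 2, 12 and 24 h.

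The genotypes differed in their Ccn2 response over time. A moderated F-test asked whether the HGF response differed between KO and WT at any of the 4 times. For Ccn2 it gave an adjusted p of 0.0414. It called 1.58% of all probes and, of the 5 members tested, only Ccn2. The single differences of responses, KO minus WT, were 0.51 ± 0.63 at 0.5 h, -1.11 ± 0.63 at 2 h, -2.48 ± 0.67 at 12 h and -1.90 ± 0.63 at 24 h. None of these was called on its own (adjusted p = 0.818, 0.999, 0.256 and 0.205, where 0.00686%, 0.0274%, 0.0754% and 0.727% of probes were called). Without array sets A and B, which leaves the 12 h comparison within set C, the 12 h difference was -2.22 (adjusted p = 0.035). The any-time test gave an adjusted p of 0.458 on the Cy5 arrays alone and 0.015 on the Cy3 arrays alone. Its call was lost in 20 of 30 fits that each left out 1 replicate (adjusted p 0.0119 to 0.107).

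Compared directly between genotypes, Ccn2 was called at no single time. KO minus WT was 0.76 ± 0.45 in untreated cells (adjusted p = 0.999, 0.0617% of probes called), 1.27 ± 0.45 at 0.5 h (0.103) and -0.34 ± 0.45 at 2 h (0.973). At 12 h it was -1.72 ± 0.50, 3.28-fold lower in KO (adjusted p = 0.0656, n = 2 and 3), and at 24 h -1.13 ± 0.45 (0.153). Replicates of the 2 genotypes did not overlap at 0.5 h and 12 h and overlapped at the other times, and how many probes lacked overlap was not counted. By limma 4.3% and 2.84% of probes were called at 0.5 h and 12 h. Of the 6 members limma called 2 at 0.5 h (Ankrd1 and Lats2) and 0 at 12 h, with 1 at 12 h at an unadjusted p under 0.05. At 12 h 14.1% of all probes had such a p. When array set entered the model as a term, the differences at 0.5 h, 12 h and 24 h were called (adjusted p = 0.00068, 0.000571 and 0.00529), and with groups weighted by their spread those at 0.5 h and 12 h were (0.00633 and 0.0196). In order of mean, the groups ran from WT 12 h (3.05 ± 0.13), WT 24 h (2.59 ± 0.89) and KO 0.5 h (2.16 ± 0.27) through KO 24 h (1.46 ± 1.05), KO 12 h (1.33 ± 0.59) and KO 0 h (1.12 ± 0.32) to WT 0.5 h (0.89 ± 0.33), WT 2 h (0.77 ± 0.26), KO 2 h (0.43 ± 0.71) and WT 0 h (0.36 ± 0.71). The replicates of each group overlapped those of the next in all 9 steps of this order.

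The late Ccn2 rise in WT and the 12 h difference between genotypes had the same sign on both dyes. The Ccn2 ratio was above 0 in both orientations in 24 of 29 replicates and of opposite sign in 5. The rise in WT at 12 h was 3.18 on the Cy5 arrays and 2.20 on the Cy3 arrays, and the KO minus WT difference at 12 h was -1.65 and -1.58, where the Cy5 value includes KO replicate 2. At 2 h the KO minus WT difference was 0.06 on the Cy5 arrays and -0.75 on the Cy3 arrays. The plot of single arrays by dye shows this beside Ankrd1 and Lats2.

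**Figure D2:**
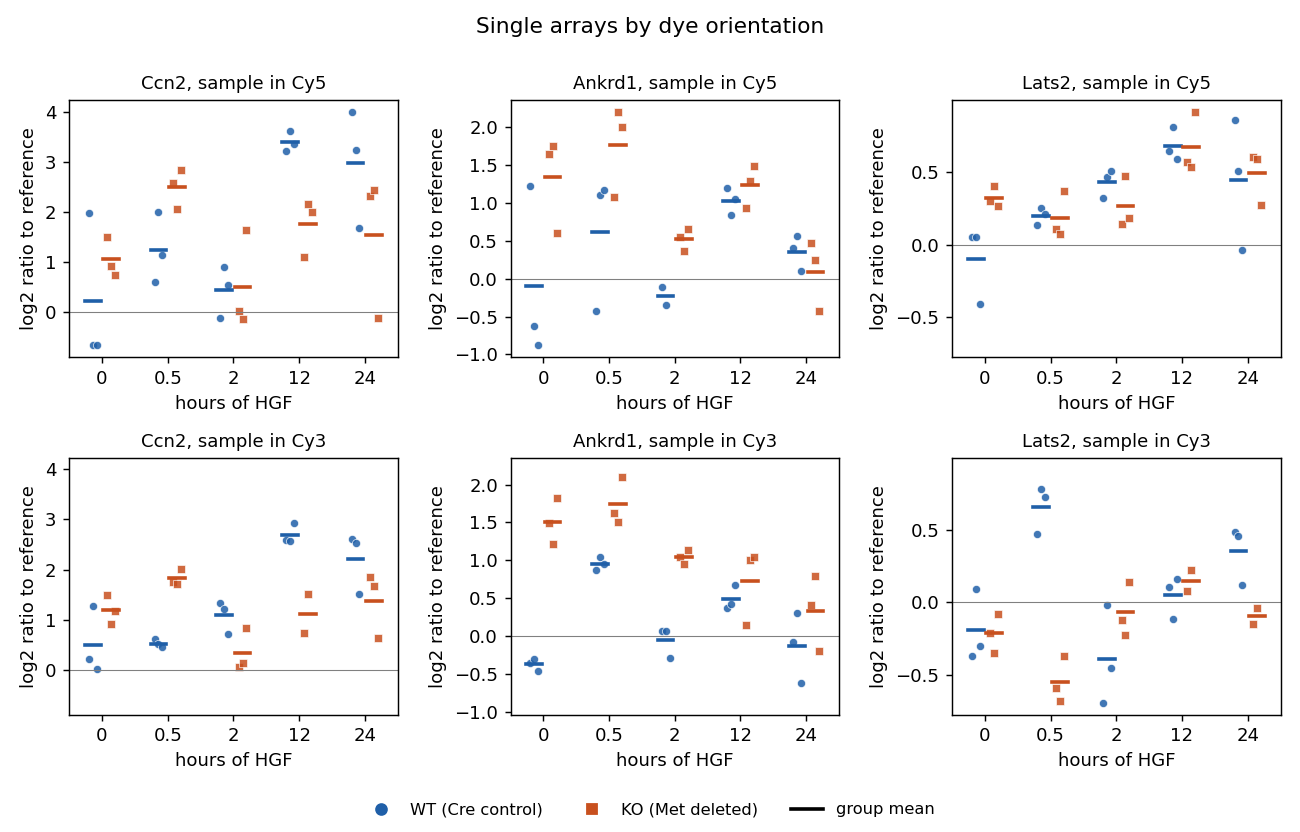
Log2 ratio of single arrays to the pooled reference for Ccn2, Ankrd1 and Lats2 (columns) with the sample in Cy5 (top) or Cy3 (bottom), by hours of HGF; circles are WT, squares KO, bars group means. Ccn2 in WT rises at 12 h by 3.18 in Cy5 and 2.20 in Cy3, while the Lats2 difference between genotypes at 0.5 h is -0.01 in Cy5 and -1.21 in Cy3.

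Ankrd1 encodes a nuclear and sarcomeric ankyrin repeat protein and is among the most responsive YAP targets. Its values were highest in KO cells before HGF and at 0.5 h, and within KO they were lowest at 24 h. In untreated cells the log2 ratios were 0.43, -0.46 and -0.67 in WT and 1.56, 1.48 and 1.21 in KO. The lowest KO replicate exceeded the highest WT replicate, and the means differed by 1.65 ± 0.28, 3.14-fold; this is the difference that was known when the genes were chosen. With the doubtful WT array turned it was 1.36.

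At 0.5 h of HGF, Ankrd1 was 0.22, 1.07 and 1.06 in WT and 1.35, 1.85 and 2.05 in KO. KO was higher by 0.97 ± 0.28, 1.96-fold (limma adjusted p = 0.0477, n = 3 and 3), and the genotypes did not overlap. The call was lost in 20 of 30 fits that left out 1 replicate (0.69 to 1.17), with scale normalization and on the Cy5 arrays alone. At 2 h replicates 1 and 3 of WT had -0.02 and -0.32 and KO had 0.80, 0.66 and 0.90, again without overlap. The difference of 0.95 ± 0.31 was not called (adjusted p = 0.241), where 0.432% of probes were.

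At the late times the Ankrd1 replicates of the genotypes overlapped. Ankrd1 was 0.78, 0.63 and 0.86 in WT and 0.54, 1.14 and 1.26 in KO at 12 h, and 0.17, 0.43 and -0.26 in WT and 0.44, 0.52 and -0.32 in KO at 24 h. The KO minus WT differences were 0.22 ± 0.28 (adjusted p = 0.797, 95% interval -0.35 to 0.80) and 0.10 ± 0.28 (0.887, interval -0.48 to 0.68), with overlap at both times. At 24 h limma called 4.77% of probes and 0 of the 6 members. Of the members 2 had an unadjusted p under 0.05 at 24 h, as had 19.5% of all probes. Averaged over the 4 HGF times, which leaves out the untreated cells, Ankrd1 was higher in KO by 0.56 ± 0.14, 1.48-fold (limma adjusted p = 0.0118). Of all probes 10.2% were called, and of the 6 members only Ankrd1. This average was added after the data were seen and was not run under the alternative settings. Ankrd1 was chosen with its untreated difference known, and 1 mouse may have served several times. Neither this test nor that at 0.5 h is therefore independent of the choice. Over all 5 times, 10.2% of probes were called and 0 of the 5 other tested members by limma. Of these 5 members 1 had an unadjusted p under 0.05, as had 23.0% of all probes.

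Against untreated cells the Ankrd1 values are given as a description, since those replicates were in view when the genes were chosen. In WT the mean was 0.99 ± 0.28 above untreated at 12 h, without overlap, and 1.01 ± 0.28 above at 0.5 h, where 0.123% of probes were called. With the doubtful untreated array turned these were 0.70 and 0.72, and without array sets A and B 0.77 and 0.79. In KO the log2 difference of 24 h from untreated cells was -1.21 ± 0.28, 2.31-fold lower, and all 3 replicates at 24 h lay below the untreated ones. The KO minus WT differences of responses were -1.43 ± 0.39 at 12 h and -1.55 ± 0.39 at 24 h.

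**Figure D3:**
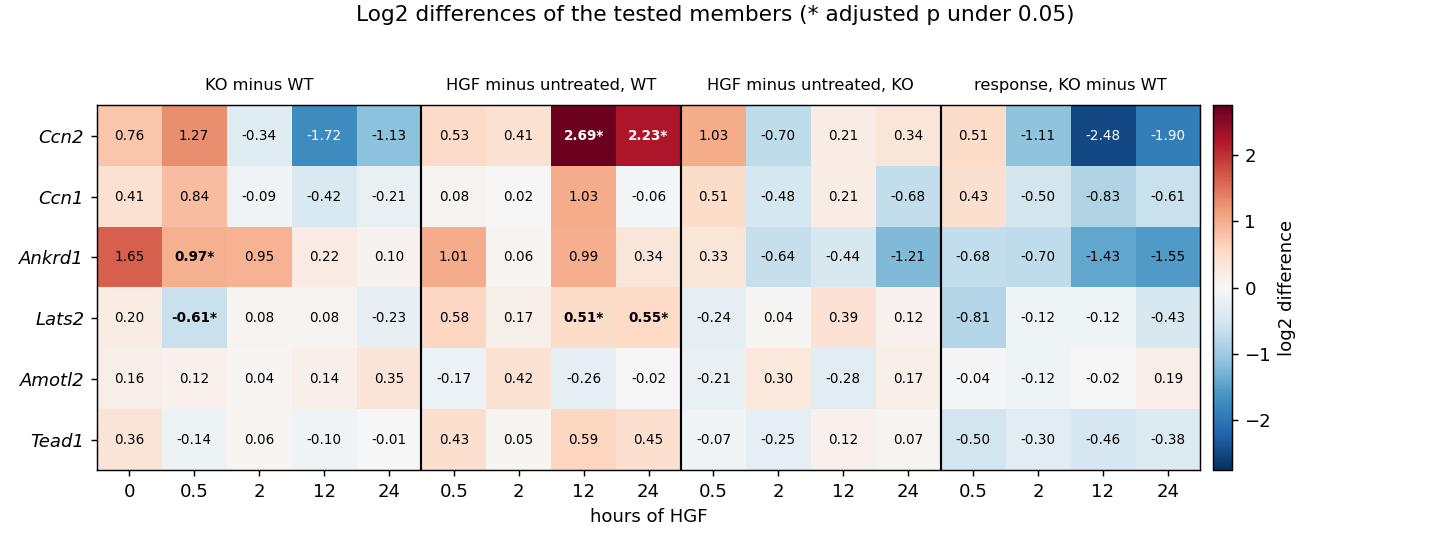
Log2 differences (colour and number) of the 6 tested members (rows) in each comparison (columns, by hours of HGF): KO minus WT, HGF minus untreated in WT, HGF minus untreated in KO, and the KO response minus the WT response. Asterisks mark adjusted p under 0.05; comparisons of Ankrd1 that use untreated cells are shown as a description, and Ccn2 at 12 h goes from 2.69 in WT to 0.21 in KO.

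Ccn1, the matricellular relative of Ccn2, had no call at any single time in any comparison. In WT its log2 ratios were 1.21 and -0.30 untreated and 0.35 and 0.72 at 0.5 h. Untreated replicate 2 and 0.5 h replicate 3 had a value on their Cy5 arrays only, 0.549 and 1.68. The averaged log2 ratios were 0.01, 0.68 and 0.73 at 2 h, 1.48, 1.51 and 1.46 at 12 h and 0.90, 0.75 and -0.48 at 24 h. In KO they were 1.40, 0.81 and 0.37 untreated, 1.07, 1.29 and 1.75 at 0.5 h, 0.49, 0.20 and 0.46 at 2 h, 0.80, 1.14 and 1.25 at 12 h and 0.83, -0.08 and -0.21 at 24 h. The 12 h WT replicates lay within a narrow range above all other WT values, 1.03 ± 0.41 above the 2 untreated ones (limma adjusted p = 0.14). That difference rested on which untreated replicates entered: it was 1.79 and called without replicate 1 (adjusted p = 0.0174), 0.28 without array sets A and B (0.744) and 0.73 with the doubtful array turned. At 0.5 h KO exceeded WT by 0.84 ± 0.41 (n = 3 and 2, adjusted p = 0.243), without overlap of the averaged replicates. This was called with array set as a term (0.0248) and with groups weighted by spread (0.038). On the Cy5 arrays, which include WT replicate 3, the difference was 0.27 and the genotypes overlapped. On the Cy3 arrays it was 1.26, so its size rests on 1 dye orientation.

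Amotl2 encodes an angiomotin-family scaffold that binds YAP and restrains it, and is itself a YAP target. Its ratios were nearest to 0 at 2 h in both genotypes: -0.12, -0.02 and 0.06 in WT and 0.11, 0.00 and -0.09 in KO. Untreated WT replicates had -0.64, -0.25 and -0.44, and untreated KO replicates -0.46, -0.40 and -0.00. At 12 h the values were -0.70, -0.93 and -0.50 in WT and -0.59, -0.60 and -0.53 in KO. The 2 genotypes overlapped at all 5 times, and no single comparison was called; at 2 h in WT the difference from untreated was 0.42 ± 0.16 (adjusted p = 0.257, 0.446% of probes called), 0.29 with the doubtful array turned and -0.07 with array set as a term. Over the 4 HGF times together, an F-test called a change from untreated in WT (adjusted p = 0.0207) and not in KO (0.0786; difference between genotypes 0.871), where 26.0% and 6.54% of probes were called. In WT this test includes the 0.5 h and 2 h samples, which lay in another array set than the untreated ones, and the part of the sets in it was not tested. The WT differences from untreated on the Cy5 and Cy3 arrays were 0.50 and -0.84 at 0.5 h and 0.71 and 0.12 at 2 h. They were 0.23 and -0.76 at 12 h and 0.34 and -0.39 at 24 h. The 2 dyes thus differed in sign at all times but 2 h, and the part of the dyes was not tested. For Ccn2 the same tests gave 0.000219 and 0.124 and for Lats2 0.0104 and 0.0965.

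LATS2 is the kinase that phosphorylates YAP, and its gene is also a YAP target. On the tested probe, of source sequence AB028209, untreated WT replicates had log2 ratios of -0.16, 0.07 and -0.36 and untreated KO replicates 0.04, 0.03 and 0.09. At 0.5 h WT had 0.30, 0.52 and 0.47 and KO had -0.24, -0.30 and 0.00. At 0.5 h KO was lower, with a log2 difference of -0.61 ± 0.14, 1.53-fold (limma adjusted p = 0.018), without overlap. This difference was -0.01 on the Cy5 arrays and -1.21 on the Cy3 arrays, so the call rests on 1 dye orientation. Leaving out WT replicate 2, WT replicate 3, KO replicate 1 or KO replicate 2 at 0.5 h also ended it (-0.70 to -0.55). The second Lats2 probe, of source sequence NM_015771, did not show it: its means were 0.10 in WT and 0.23 in KO at 0.5 h.

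In WT, Lats2 on the tested probe rose with HGF by 0.51 ± 0.14 at 12 h (1.43-fold, adjusted p = 0.0356) and 0.55 ± 0.14 at 24 h (1.46-fold, adjusted p = 0.018), from 0.38, 0.35 and 0.38 at 12 h and 0.67, 0.49 and 0.04 at 24 h. Replicates overlapped those of untreated cells at 24 h and not at 12 h. Both calls were lost with the doubtful untreated WT array turned (adjusted p = 0.115 and 0.054) and with that replicate left out; leaving out 1 replicate gave 0.41 to 0.63 at 12 h and 0.41 to 0.73 at 24 h. The 12 h difference was 0.79 on the Cy5 arrays and 0.24 on the Cy3 arrays (adjusted p = 0.433), and without array sets A and B it was 0.41 (0.0786). The 24 h difference was 0.55 on either dye and called on neither (limma adjusted p = 0.0738 on Cy5 and 0.0851 on Cy3). In KO the difference was 0.39 ± 0.16 at 12 h (n = 2 and 3, adjusted p = 0.456). The second probe had means of 0.17 untreated (n = 2), 0.34 at 12 h (n = 2) and 0.41 at 24 h (n = 1) in WT.

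TEAD1 is the DNA-binding partner through which YAP reaches its targets. On the tested Tead1 probe, of source sequence AK011524, WT had 0.23, 0.18 and -0.67 untreated, 0.57, 0.45 and 0.50 at 12 h and 0.89, 0.48 and -0.27 at 24 h. KO had 0.42, 0.37 and 0.06 untreated and 0.22, 0.46 and 0.53 at 12 h. No comparison was called, and the WT difference at 12 h was 0.59 ± 0.22 (limma adjusted p = 0.117), and 0.27 with the doubtful array turned. The second probe, of source sequence NM_009346, had means in WT of -0.09 untreated, 0.45 at 0.5 h and -0.60 at 12 h. In WT both probes were above untreated at 0.5 h, by 0.54 on the second and 0.43 on the first, while at 12 h and 24 h the second lay below untreated, by -0.51 and -0.24, and the first above. On the second probe the KO minus WT difference at 0.5 h was -0.92 (n = 3 and 3), against -0.14 ± 0.22 on the first. Its means at 0.5 h were -0.14 in WT and -0.19 in KO on the Cy5 arrays, and 1.05 and -0.74 on the Cy3 arrays. In untreated WT they were -0.20 on Cy5 and 0.02 on Cy3. Its 0.5 h differences therefore rest on 1 dye orientation. With opposite signs in WT at 12 h, the 2 probes do not give 1 answer for Tead1.

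**Figure D4:**
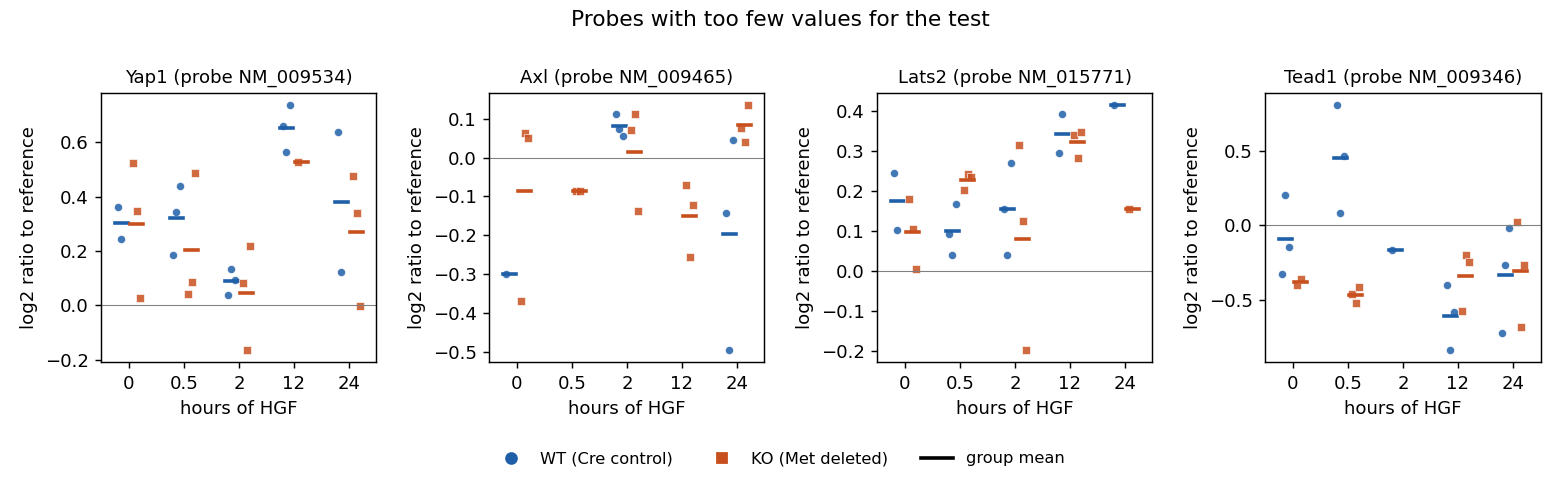
Log2 ratio to the pooled reference (vertical axis, scale differs between panels) by hours of HGF for the probes of Yap1 and Axl and the second probes of Lats2 and Tead1, which lacked values in some groups; circles are WT replicates, squares KO, bars group means. Yap1 runs highest at 12 h in WT, and Axl stays between -0.49 and 0.13.

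Yap1, which encodes the coactivator itself, was measured in both dye orientations in 26 of 30 replicates and missed the filter through KO at 12 h. In WT its log2 ratios were 0.36 and 0.24 untreated, 0.18, 0.34 and 0.44 at 0.5 h, 0.04, 0.14 and 0.09 at 2 h, 0.66, 0.56 and 0.74 at 12 h and 0.64 and 0.12 at 24 h. In KO they were 0.53, 0.35 and 0.03 untreated, 0.04, 0.09 and 0.49 at 0.5 h, 0.08, -0.16 and 0.22 at 2 h, 0.53 at 12 h and 0.48, 0.34 and -0.00 at 24 h. The means of the averaged replicates differed between KO and WT by -0.12 to 0.0 over the 5 times, with 1 KO replicate at 12 h. On the Cy5 arrays at 12 h the values were 1.041, 0.977 and 1.108 in WT and 0.677, -0.075 and 0.814 in KO. On the Cy3 arrays at 12 h the WT mean was 0.27 and the only KO value 0.241. The genotype difference of Yap1 was not tested. The mean of WT at 12 h lay 0.35 above that of untreated WT.

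Axl, a receptor tyrosine kinase of the TAM family that binds Gas6, was measured in both dye orientations in 21 replicates. These included fewer than 2 replicates of WT at each of 0, 0.5 and 12 h. Its averaged ratios ran from -0.49 to 0.13. The 2 orientations had opposite signs in 15 of 21 replicates; at 24 h in KO the Cy5 arrays read -1.11, -1.74 and 0.22 and the Cy3 arrays 1.26, 1.82 and 0.05. The averages near 0 combine readings of opposite sign. Its ligand Gas6, on a list of TAM receptors and ligands with 3 of 4 genes tested, was higher in KO than in WT by 0.89 ± 0.16 at 12 h (limma adjusted p = 0.00201) and 1.13 ± 0.16 at 24 h (6.64e-05), and its HGF response at 24 h differed by 1.22 ± 0.22 (0.00681). Pros1, another TAM ligand, was higher by 0.84 ± 0.24 at 24 h (0.0448). Between genotypes 2.84% of all probes were called at 12 h and 4.77% at 24 h, and 0.727% for the difference of responses at 24 h.

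Genes of the wider Hippo pathway were counted in the same comparisons. Of 13 tested genes among 28 Hippo kinases and upstream regulators, 1 was called in WT at 24 h of HGF, where 8.72% of all probes were called. It was Rassf1, a scaffold of the Hippo kinases, higher by 0.86 ± 0.25 (limma adjusted p = 0.0289). Between genotypes 1 was called at 12 h, against 2.84% of probes. It was Wwc1, the upstream activator KIBRA, higher in KO by 0.61 ± 0.14 (adjusted p = 0.0184). Of 4 tested among 13 YAP, TAZ, TEAD and cofactor genes, only Tead4 was called in the HGF comparisons. Tead4 rose in WT by 0.82 ± 0.24 at 12 h (adjusted p = 0.0434) and 0.77 ± 0.24 at 24 h (0.0451), and in KO by 0.76 ± 0.21 at 24 h (0.0466). In these comparisons 5.81%, 8.72% and 3.48% of all probes were called. Averaged over all 5 times, where 10.2% of probes were called, 2 of the 13 were higher in KO, Wwc1 (0.49 ± 0.06, adjusted p = 1.28e-05) and the kinase gene Taok3 (0.24 ± 0.07, 0.022). Of the 4, Tead4 was higher (0.49 ± 0.10, 0.00171) and the phosphatase gene Ptpn14 lower (-0.32 ± 0.07, 0.00237). The medians of these 2 lists in WT at 12 h were 0.23 and 0.04, and that of all probes was 0.02.

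Other YAP and TEAD targets were called in both directions. Of 34 such genes 22 were tested, and 3 of the 22 were called in WT at 12 h of HGF, where 5.81% of all probes were. Of these 2 were higher, Crim1 (0.76 ± 0.19, limma adjusted p = 0.0184) and Dock5 (0.68 ± 0.17, 0.017), and 1 lower, Foxf2 (-0.54 ± 0.15, 0.0366). At 24 h 3 of the 22 were called, against 8.72% of probes: Asap1 and the survivin gene Birc5 were called higher, each by 0.79, and Fjx1 lower (-0.83 ± 0.18). The list medians were 0.06 and 0.15, those of all probes 0.02 and -0.03. In KO limma called 0 of the 22 at any of the 4 times, with 14 of 88 pairs of gene and time at an unadjusted p under 0.05. Of all probes 4.43%, 5.92%, 8.37% and 15.8% had such a p at 0.5, 2, 12 and 24 h in KO. Between genotypes 3 of the 22 were called at 0.5 h and 3 at 12 h, against 4.3% and 2.84% of probes. At 0.5 h the Notch ligand gene Jag1 (0.76 ± 0.22) and Fjx1 (0.58 ± 0.16) were called higher in KO and the stress gene Gadd45a lower (-1.02 ± 0.17). At 12 h Dock5 was lower in KO (-0.64 ± 0.17) and Wwc1 and Foxf2 were higher. At 24 h Asap1 was lower (-0.67 ± 0.19), where 4.77% of probes were called.

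Targets of SRF and its actin-sensing coactivators MRTF overlap with YAP targets and were counted beside them, with 17 of 22 tested. In WT at 12 h 2 of the 17 were called, both higher, where 5.81% of all probes were called. Tpm1, a tropomyosin, rose by 1.31 ± 0.29 (limma adjusted p = 0.00847) and the integrin gene Itga5 by 0.55 ± 0.14 (0.0193). At 24 h 1 was called higher and 3 lower, against 8.72% of probes. Tpm1 stayed higher (1.10 ± 0.29, 0.0174), while the cytoskeletal genes Actg1 (-1.02 ± 0.22), Vcl (-0.78 ± 0.18) and Zyx (-0.45 ± 0.12) were lower. In KO, Actg1 fell by 24 h (-1.18 ± 0.22, adjusted p = 0.0035), where 3.48% of probes were called, and Tpm1 was not called. Between genotypes 3 of the 17 were called at 0.5 h, against 4.3% of probes. Tpm2 (1.15 ± 0.31), Cnn2 (0.79 ± 0.20) and Cnn1 (0.74 ± 0.21), genes of actin-binding proteins, were higher in KO than in WT. Cnn2 was also called higher in KO at 12 h and Fhl2 lower at 24 h, where 2.84% and 4.77% of probes were called. Averaged over all 5 times, Tpm2, Cnn2, Cnn1 and Acta2 were called higher in KO, 4 of the 17, against 10.2% of probes. The lists of further CCN genes and of muscle ankyrin repeat genes had 0 tested probes.

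The genes whose replicate values were most like those of each tested member were found by Pearson's r over 27 to 30 shared replicates, as a description. The replicates share groups, arrays and reference, so an r over all of them also holds differences between groups. For Ccn2 they were Actn1 (0.909), Ppp4r1 (0.887) and Cnih1 (0.869), and for Ankrd1 they were F3, the tissue factor gene (0.813), Efhd2 (0.811) and Rpa1 (0.785). For Ccn1 they were Map2k3 (0.877), Rad23b (0.856) and Utp4 (0.851), and for Tead1 Itgav (0.902), Lasp1 (0.899) and Ahnak (0.897). For Amotl2 they were Ifi204 (0.824), Dclre1a (0.819) and Mx2 (0.811), and for Lats2 Rpl21 (0.875), Rpl30 (0.873) and Eef1d (0.871). Among the members, Ccn2 had its highest r with Tead1 (0.719) and Ccn1 (0.621), and r with Ankrd1 was 0.347; with Amotl2 it was -0.559.

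Other cell types in the cultures were followed by their markers. Of 15 hepatocyte markers 13 were tested, and the replicate mean of their log2 ratios was -0.36 to 0.09 in untreated WT, -0.80 to -0.60 at 12 h and -1.08 to -0.75 at 24 h. In KO it was 0.01 to 0.25 untreated, -0.57 to -0.30 at 12 h and -1.0 to -0.23 at 24 h. Stellate cells express Ccn2 in injured liver, and 7 of their 15 markers were tested. Replicate means of these were -0.14 to 0.18 in untreated WT and -0.25 to -0.21 at 12 h. In KO they were -0.13 to 0.04 and -0.20 to 0.44. Col3a1 was lower in WT at 12 h by -0.80 ± 0.16 (limma adjusted p = 0.00489). The other 6 were not called there, and the list median was -0.01, against 0.02 for all probes. Col3a1 was also called lower at 24 h in both WT and KO. Between genotypes, Dcn was called lower in KO at the first HGF time, where 4.3% of probes were called. Acta2 was called higher in KO averaged over all times, where 10.2% were. Means in WT for endothelial markers (7 of 16) were -0.15 to -0.02 untreated and -0.09 to 0.06 at 12 h. In the same order, those for Kupffer cells (7 of 13) were -0.24 to 0.07 and -0.24 to -0.06. Those for bile duct cells (6 of 13) were -0.15 to -0.02 and -0.20 to -0.13. The bile duct keratin gene Krt7 was higher in WT at 12 h (0.69 ± 0.12, adjusted p = 0.00129) and its response at 24 h differed between genotypes (-0.97 ± 0.17, 0.00343). The chloride channel gene Cftr, also on the bile duct list, was lower in WT at 12 h (-1.15 ± 0.27, 0.0115) and 24 h (-1.09 ± 0.27, 0.00957), and Muc1 was higher at 24 h (0.55 ± 0.12, 0.00367). Of all probes 5.81% were called in WT at 12 h and 8.72% at 24 h, and 0.727% for the difference of responses at 24 h. The part of changed hepatocyte state or of other cells in the Ccn2 result was not tested; in bulk RNA fewer cells of a type and less RNA per cell cannot be told apart.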

How the data were processed

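The deposited table holds 1 log2 ratio per probe and array for 60 arrays; that its values are log2 and sample over reference is inferred, and the scanner settings and normalization are not given in the sources used here. Of all values 6.01% were missing, and the number of arrays limits the precision. Arrays were centred on their median, the 2 dye orientations of a replicate averaged (both required), and probes kept with 2 or more of 3 replicates in all 10 groups (14580, 66.3%). All groups were fitted together with limma 3.58.1 in R 4.3.3 (20 residual degrees of freedom), without a replicate block; the genotype average over times used genotype by repeat as a random block (correlation -0.0023). Probes were named from platform annotation updated to current symbols: 16076 had 1 symbol, 288 several and 5633 none. Replicates are cultures of individual mice, and 1 mouse may have served several times. The treatment field gives 0.5 h for 12 arrays titled 12 h; titles were used. The numbers of replicates did not pair samples: 6 of 15 WT and 4 of 15 KO replicates correlated best with their own number.

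The members were chosen with the untreated Ankrd1 difference in view, and the pathway and marker lists and the tests with earlier results of these data known. The tests of members and lists are therefore not free of that knowledge. Comparisons of Ankrd1 that use untreated cells are given without a test and left out of counts of calls. Named were all members, for each tested member the 3 most alike genes, and up to 4 called genes of each list in a comparison. The code was tested on simulated data. The alternatives covered centring, scaling, probe filters, dye orientation, array sets, weights, blocks and leaving out each replicate. The average over the 4 HGF times was added after seeing the data.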

Additional observations from a re-analysis of the deposited data

Results flagged for a closer look

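The HGF response of Ccn2 differed between KO and WT when all 4 times were tested together (limma moderated F-test, adjusted p = 0.0414). At 12 h Ccn2 was 2.69 ± 0.45 above untreated cells in WT and 0.21 ± 0.50 in KO. No single time passed on its own, and the cause of the difference was not tested.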

How the results depend on the processing

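None of the 6 called results reversed under any of the 45 settings run for each. The Ccn2 rise in WT at 12 h kept its call in all 45 (1.77 to 3.18), and that at 24 h lost it in 1. The Lats2 rise in WT lost its call in 14 of 45 settings at 12 h and in 10 at 24 h. Between genotypes at 0.5 h the call was lost in 23 of 45 settings for Ankrd1 and in 5 for Lats2. Among 88 results that were not called, 51 of 3996 pairs of result and setting became called in the same direction and 143 changed sign without a call. The 14 Ankrd1 values that use untreated cells carry no test; 6 of their 630 pairs of value and setting moved by 1 residual SD or more.

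The any-time F-test of Ccn2 gave adjusted p = 0.126 with scale normalization, 0.0647 with 1 orientation enough, 0.458 on Cy5 arrays only and 0.0119 to 0.107 without 1 replicate; the cause was not tested. Counts of member calls follow, with the main count first. They leave out Ankrd1 where untreated cells enter. With it, the counts in the order below were 3, 1, 5, 1 and 0. Without it, the main fit had 29, 5, 20, 20 and 20 tests in the same order. The share of all probes called under each setting is not given here. A count that moves with the setting is therefore no result about the members. KO against WT at each time had 2 calls; it had 0 with the stricter filter, which left 2 members, and on Cy5 arrays only, 6 with only the groups compared, array set as a term or weights, 5 without array sets A and B, on Cy3 arrays only or with single arrays and a dye term and 4 with dye profiles removed (0 to 4 without 1 replicate). The genotype average had 0 calls by limma, with 1 of 5 at an unadjusted p under 0.05, and 1 with array set as a term (0 to 0 without 1 replicate). Of all probes 23.0% had an unadjusted p under 0.05 for this average. HGF in WT had 4; it had 0 with the stricter filter, 1 with only the groups compared and 2 with weights, the doubtful array turned or the doubted replicates left out (2 to 6 without 1 replicate). HGF in KO had 0 calls by limma, with 2 of 20 at an unadjusted p under 0.05, and 1 without array sets A and B or on Cy3 only (0 to 0 without 1 replicate). Between 4.43% and 15.8% of all probes had such a p over the 4 times in KO. The differences of responses had 0 calls by limma, while 3 of 20 had an unadjusted p under 0.05. They had 2 with array set as a term or with single arrays and a dye term and 1 without array sets A and B (0 to 1 without 1 replicate). For these differences 8.77%, 4.68%, 6.07% and 12.2% of all probes had an unadjusted p under 0.05 at 0.5, 2, 12 and 24 h.

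With the replicate block, member counts were 2 between genotypes at each time, 4 for HGF in WT, 0 for HGF in KO and 0 for differences of responses, and the any-time test of Ccn2 gave adjusted p = 0.0538; with no replicate block the genotype average had 0. The replicate numbers were not shown to pair the samples. With 3 replicates per group, residual SDs from 0.165 (WT 2 h) to 0.431 (KO 24 h) limit what could be called.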
